A study of Mus musculus with 4 samples.

Results

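The genes described here are 9 members of the tumour necrosis factor (TNF) superfamily, 4 ligands (Tnf, Tnfsf9, Tnfsf10 and Tnfsf15) and 5 receptors (Tnfrsf1a, Tnfrsf1b, Tnfrsf8, Tnfrsf14 and Fas), of 24148 genes in the count table. They were taken by symbol, after the counts of all RefSeq accessions of a symbol had been summed, and all 9 were found. The libraries were made from microglia, macrophages that reside in the brain, collected by shaking from primary mixed glia of mice and replated. RNA was sequenced from untreated cells (control, 2 libraries) and from cells given 10 ng/ml lipopolysaccharide (LPS), a bacterial cell wall component sensed by Tlr4, for 4 h (LPS, 2 libraries). Strain, genotype and age of the mice, pooling of animals and any sort for microglia are not stated in the labels or other sources used. Nor do the labels say whether replicates came from separate cultures, so a p-value measures only the spread between these libraries. Same-numbered control and LPS libraries deviated alike from their group means (correlation 0.656 over genes tested), so part of that spread followed the number. The source of the spread was not tested, and the test used below did not pair libraries by number.

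Most ligands of this superfamily are membrane proteins that form trimers and can be shed from the cell, and they act by clustering receptors on neighbouring cells. Many of the receptors recruit TRAF adaptors, which lead to NF-kB and MAP kinase signalling, and some carry a death domain, which can lead to caspase activation. Microglia are a main source of TNF in the inflamed brain, where it acts on neurons, glia and vessels through the receptors encoded by Tnfrsf1a and Tnfrsf1b.

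Totals were 3617176 and 4080568 counts for the controls and 5095630 and 4592474 for the LPS libraries. Levels are given as counts, or as CPM (counts relative to a common library size after TMM scaling) with mean ± SD and n = 2 libraries per group. Log2 fold changes are LPS over control with their standard error, and adjusted p-values come from edgeR's quasi-likelihood test over the 9548 genes that reached 10 counts on average. Of these genes 625 were higher in LPS and 171 lower at an adjusted p under 0.05. Scaling by total counts alone gave 471 higher and 483 lower, and shifted the median over all genes (log2 scale) from -0.05 to -0.48. Markers of microglia summed to 2673 to 3095 CPM in control and 1942 to 2089 CPM in LPS, with none of 9 tested called by edgeR, DESeq2 or limma-trend (4 lower at an unadjusted p under 0.05, and 2 called lower with total-count scaling). Itgam, a defining marker with 2 accessions, was listed at 0. Astrocyte markers summed to 114 and 310 CPM in the controls and to 130 and 440 CPM after LPS (replicate 1, then 2). Oligodendrocyte lineage markers summed to 404 and 68.5 CPM in the controls and to 414 and 60.4 CPM after LPS. The sums of these 2 lists differed by number, and so did those of the border macrophage, fibroblast, lymphocyte, endothelial and neuron lists below. Border macrophage sums were 119 and 61.4 CPM in the controls and 125 and 75.6 CPM after LPS. Fibroblast sums were 25.8 and 41.35 CPM, then 38.9 and 64.3 CPM. Within each number the astrocyte, border macrophage, fibroblast, endothelial and neuron sums were also higher after LPS. All 9 TNF superfamily genes were higher in LPS within each number, and the part of these lists in that was not tested. Lymphocyte and NK cell markers summed to 7.89 to 18.1 CPM in control and 3.84 to 14.3 CPM in LPS. Monocyte and neutrophil markers summed to 11.5 to 13.9 CPM in control and 14.6 to 22.8 CPM in LPS, with S100a9 listed at 0, and border macrophage markers to 61.4 to 119 and 75.6 to 125 CPM, with Cd163 listed at 0. Neuron markers summed to 40.4 to 49.7 CPM over the 4 libraries, endothelial markers to 15.5 to 22.1 CPM and fibroblast markers to 25.8 to 64.3 CPM, and no gene of any marker list was called by edgeR. The part of the microglia and monocyte lists, whose sums did not overlap between groups, in the results below was not tested. In bulk RNA, more cells of a type and more RNA per cell cannot be told apart.

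All 9 genes passed the count filter and were called higher in LPS, where 6.55% of all genes tested were called higher, 1.79% lower and 8.34% in either direction. For all 9, both LPS libraries lay above both controls in CPM, as did 24.7% of the genes tested. The 9 were chosen with earlier results of these data known, and 3 of them (Tnf, Tnfsf9 and Fas) had a mean control count under 10 and reached the minimum through the LPS libraries, so the count of 9 is a description. Calls were kept by Tnfsf10, Tnfsf15 and Tnfrsf1b in every setting in which they were tested, and the other 6 lost theirs when 1 library or more was left out in turn.

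The regions before the start sites are shown for 4 of the genes, because they carried matches to 3 short motifs and to the NF-kB consensus, and because 2 of them, Tnfrsf1b and Tnfrsf8, are neighbours that rose together. The sequences are RefSeq's for GRCm38.p6, 250 bases up to the start site, 5' to 3' on the gene's strand, with the motif matches in capitals. Entries were found for 8 of the 9 genes (Tnfsf9 had none). The Tnfrsf14 window precedes the start of its promoter entry but lies inside the annotated span of the gene (chromosome 4, 154918487 to 154928620), which begins further upstream on the minus strand.
Tnf (chr17:35202008-35202257, strand -): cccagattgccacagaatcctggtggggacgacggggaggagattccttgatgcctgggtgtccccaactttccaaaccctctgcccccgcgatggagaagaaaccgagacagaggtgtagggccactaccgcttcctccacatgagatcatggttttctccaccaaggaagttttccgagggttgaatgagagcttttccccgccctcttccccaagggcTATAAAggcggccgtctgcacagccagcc
Tnfrsf1b (chr4:145246871-145247120, strand -): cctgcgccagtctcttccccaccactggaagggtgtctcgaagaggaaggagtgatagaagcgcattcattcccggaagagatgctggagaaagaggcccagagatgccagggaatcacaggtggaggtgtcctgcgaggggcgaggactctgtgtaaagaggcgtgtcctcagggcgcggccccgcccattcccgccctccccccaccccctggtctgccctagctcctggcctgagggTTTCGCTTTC
Tnfrsf8 (chr4:145315165-145315414, strand -): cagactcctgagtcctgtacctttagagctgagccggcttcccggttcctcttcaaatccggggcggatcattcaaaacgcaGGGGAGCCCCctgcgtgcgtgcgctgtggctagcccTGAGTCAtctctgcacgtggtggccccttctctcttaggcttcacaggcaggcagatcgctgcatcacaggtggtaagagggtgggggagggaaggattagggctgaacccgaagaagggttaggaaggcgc
Tnfrsf14 (chr4:154928078-154928327, strand -): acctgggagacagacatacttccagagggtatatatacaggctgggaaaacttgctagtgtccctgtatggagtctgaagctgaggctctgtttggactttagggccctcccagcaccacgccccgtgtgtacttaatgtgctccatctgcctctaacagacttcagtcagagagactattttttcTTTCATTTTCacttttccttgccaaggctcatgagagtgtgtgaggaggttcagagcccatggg
Both strands were searched. The capitals in Tnf are a TATAAA element, 29 to 24 bases before the start, which 12.4% of 32851 promoter entries hold within the same length. Those in Tnfrsf1b (10 to 1 bases before the start) and Tnfrsf14 (64 to 55 bases before its entry's start) are matches to GAAA, any 2 bases and GAAA again on the opposite strand, the core pattern of interferon response elements, held by 2.98% of entries. Tnfrsf8 had a match to the NF-kB consensus on the opposite strand, 168 to 159 bases before its start (3.90% of entries). It also matched TGANTCA, the AP-1 pattern, on both strands 132 to 126 bases before the start (6.75%). Fas also matched TGANTCA, and Tnfrsf1a, Tnfsf10 and Tnfsf15 matched none of the 4 motifs in this window. A match is a string of letters and not a measured site.

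Among the ligands, Tnfsf15 and Tnfsf10 showed the steepest rises. Tnfsf15, also called TL1A, the ligand of the death domain receptor encoded by Tnfrsf25 and a T cell costimulator, had 8 and 21 counts untreated and 3000 and 2657 after LPS. The control libraries were near the floor of the table and differed from each other by a larger ratio than the LPS libraries did. Its level went from 3.07 ± 1.37 to 677 ± 55.8 CPM (n = 2 each), 213-fold higher (log2 fold change 7.73 ± 0.36, edgeR adjusted p = 3.93e-04), which placed it 31st of the 9548 genes by fitted fold change. From the counts alone the ratio was 210 with a 95% interval of 146 to 314 (Clopper-Pearson, counting error only). Leaving out each library in turn gave log2 values of 7.37 to 8.28.

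Tnfsf10, which encodes TRAIL, a ligand that can trigger apoptosis through death receptors, had 13 and 15 counts untreated and 604 and 450 after LPS. Replicates of each group were close, and the groups lay far apart. The rise was from 3.15 ± 0.377 to 126 ± 25.6 CPM (n = 2 each), 39.9-fold (log2 5.32 ± 0.30, edgeR adjusted p = 6.85e-04), and leaving out a library gave 5.10 to 5.52.

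Tnf itself, the founding cytokine of the family, was measured on few counts, with 4 and 2 in control and 29 and 38 in LPS. The LPS libraries were both above the controls, and the lowest LPS count was 29. Its level went from 0.718 ± 0.472 to 8.02 ± 1.55 CPM (n = 2 each), 11.4-fold (log2 3.51 ± 0.57, edgeR adjusted p = 0.020), and the ratio from counts was 12 (95% interval 5.25 to 33.9). Within the libraries numbered 1 the log2 ratio of CPM was 2.72, and within those numbered 2 it was 4.57. It missed the threshold when LPS replicate 1 (3.70, adjusted p = 0.0505), LPS replicate 2 (3.30, 0.0729) or control replicate 2 (2.87, 0.0541) was left out. Without control replicate 1, where 2 control counts remained, the log2 ratio from counts was 4.38 (interval 2.47 to 7.46). Over all settings without a replicate block its adjusted p ran from 0.00132 to 0.0729.

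The low counts of Tnf came with a feature of the table. Tnf has 2 RefSeq accessions, and in GENCODE models matched to them 177 of the 1639 exonic bases (10.8%) of the accession that held all its counts lie in no other accession of the gene. The other accession had 0 counts in all 4 libraries. Among all genes, 11.7% of those with more than 1 accession reached the count minimum, compared with 46.5% of those with 1 accession. Fas, the other member with 2 accessions, has 85.3% of its main accession to itself. How reads that fall in shared exons were counted is not stated, so the level of Tnf relative to other genes is uncertain, and its part in the fold change was not tested.

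Tnfsf9, which encodes 4-1BB ligand, a costimulator of T cells, had 7 and 10 counts untreated and 130 and 49 after LPS. The LPS libraries differed from each other, but the lower of them was still above both controls. It went from 1.88 ± 0.0587 to 21.4 ± 13.6 CPM (n = 2 each), 11.2-fold higher (log2 3.48 ± 0.59, edgeR adjusted p = 0.0237). Without LPS replicate 1 the value was 2.63 and the call was lost (adjusted p = 0.0634, range 1.42e-05 to 0.0634 over the settings without a block). A long non-coding gene, Gm11110, overlaps Tnfsf9 on the opposite strand, and the strand setting of the counting is not given.

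Of the receptors, Tnfrsf1b had the highest level of the 9 in both groups. It encodes TNFR2, the TNF receptor without a death domain, which binds TRAF2 and is found mainly on immune and glial cells. It had 1892 and 1425 counts untreated and 14287 and 9455 after LPS. Both LPS libraries were several-fold above both controls. The level went from 386 ± 158 to 2840 ± 808 CPM (n = 2 each), 7.36-fold higher (log2 2.88 ± 0.38, edgeR adjusted p = 0.0103), with 2.48 to 3.36 when a library was left out.

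Tnfrsf1a encodes TNFR1, the broadly expressed TNF receptor with a death domain. It had 465 and 528 counts untreated and 1153 and 895 after LPS, and the groups did not overlap. The difference was smaller than for Tnfrsf1b, from 112 ± 14.6 to 245 ± 42.9 CPM (n = 2 each), 2.19-fold (log2 1.13 ± 0.23, edgeR adjusted p = 0.0399). That call did not hold without LPS replicate 1 (0.95, adjusted p = 0.253), LPS replicate 2 (1.30, 0.099) or control replicate 2 (0.97, 0.0952). With total-count scaling the value was 0.71 (adjusted p = 0.0965), against a median of -0.48 for all genes, and the range over settings without a block was 0.00635 to 0.253.

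The balance of the 2 TNF receptors can be read within each library, where scaling cancels. Per kilobase of transcript, Tnfrsf1b over Tnfrsf1a was 2.30 and 1.52 in the controls and 7.0 and 5.97 after LPS (replicate 1, then 2). The ratio thus averaged 1.91 ± 0.547 in control and 6.48 ± 0.729 in LPS (n = 2 each), and the groups did not overlap. An exact permutation test (two-sided) gave p = 0.333, the smallest value that 2 against 2 libraries can give. The log2 ratio was 1.79 higher in LPS.

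Tnfrsf8 encodes CD30, a receptor best known from activated lymphocytes. It had 10 and 12 counts untreated and 59 and 77 after LPS, on a low level that did not overlap between groups. It went from 2.47 ± 0.227 to 16.3 ± 3.10 CPM (n = 2 each), 6.56-fold (log2 2.71 ± 0.36, edgeR adjusted p = 0.0106), and the call was lost without LPS replicate 2 (2.51, 0.0579, range 1.21e-04 to 0.0579). Of the 9 lymphocyte and NK cell markers in the same libraries, Cd4 had 52, 12, 46 and 7 counts (controls first). The other 8 markers had 0 to 8 counts per library, among them the T cell marker Cd3e with 3, 4, 3 and 2, and Cd8a was listed at 0. Their part in the level of Tnfrsf8 was not tested.

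Tnfrsf14 encodes HVEM, the receptor of the ligand LIGHT and of the inhibitory receptor BTLA. The counts were 21 and 23 untreated and 153 and 100 after LPS, with close controls and wider LPS values. It went from 4.97 ± 0.776 to 30.3 ± 8.87 CPM (n = 2 each), 6.09-fold (log2 2.61 ± 0.35, edgeR adjusted p = 0.0106), and lost its call without LPS replicate 1 (2.28, 0.0556, range 6.09e-06 to 0.0556).

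Fas, the death receptor that binds Fas ligand, had 2 and 9 counts untreated and 34 and 59 after LPS. The controls differed several-fold on very few counts, and both were below the LPS libraries. It went from 1.13 ± 0.852 to 11.1 ± 4.27 CPM (n = 2 each), 9.18-fold (log2 3.20 ± 0.62, edgeR adjusted p = 0.0357). The call was lost without LPS replicate 1 (3.55, 0.0531), without LPS replicate 2 (2.75, 0.126) and with total-count scaling (2.76, 0.0553), with a range of 0.00114 to 0.126. Without control replicate 2, where 2 control counts remained, the log2 ratio from counts was 4.40 (interval 2.51 to 7.47). Its own ligand gene, Fasl, was listed at 0 in all 4 libraries, with 2 accessions.

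**Figure D1:**
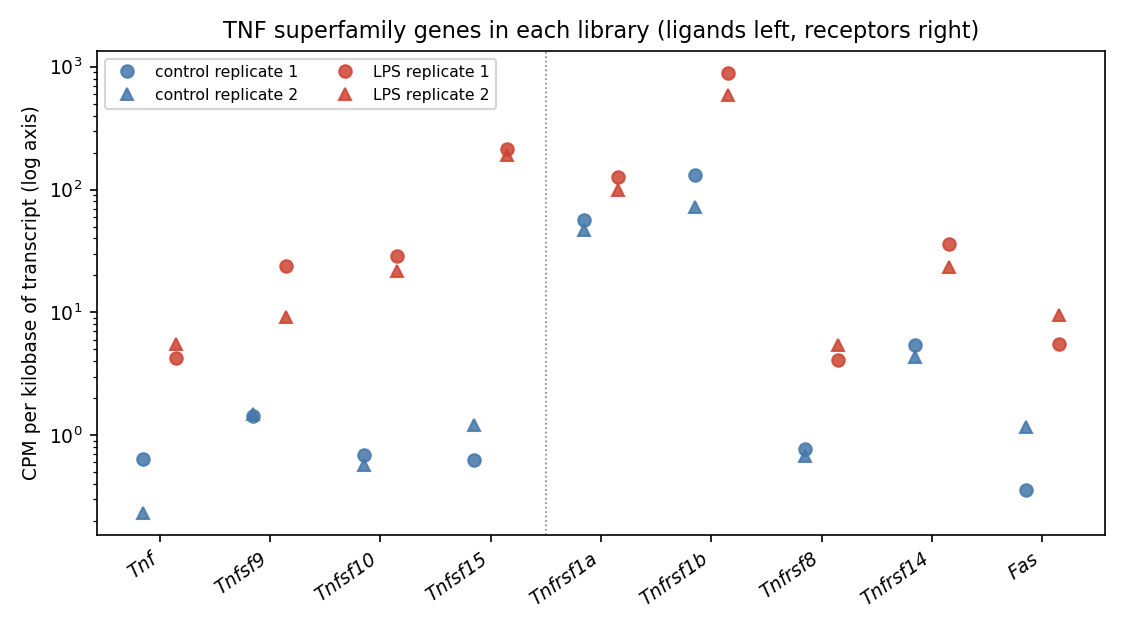
Level of each of the 9 genes in each library, in CPM per kilobase of transcript on a log axis, with circles for replicate 1 and triangles for replicate 2, control in blue and LPS in red. For all 9 genes both LPS points lie above both control points, and Tnfrsf1b is highest in LPS at 893 and 594.

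Levels between genes were compared per kilobase, using the length of the GENCODE transcript paired with each gene's main accession. The full length was used for Tnf too. Its place in the orders below is uncertain, because how reads in shared exons were counted is not stated. In control, Tnfrsf1b (101 ± 41.4 CPM per kilobase) and Tnfrsf1a (51.9 ± 6.79) stood above the rest, with Tnfrsf14 next at 4.88 ± 0.762. The other 6 genes lay between 0.438 (Tnf) and 1.46 (Tnfsf9) CPM per kilobase. In LPS the order was Tnfrsf1b (744 ± 212), Tnfsf15 (202 ± 16.7), Tnfrsf1a (114 ± 19.9), Tnfrsf14 (29.7 ± 8.71), Tnfsf10 (25.3 ± 5.14), Tnfsf9 (16.6 ± 10.6), Fas (7.52 ± 2.88), Tnf (4.89 ± 0.945) and Tnfrsf8 (4.77 ± 0.908), all n = 2. Tnfsf15 moved from this low group, at 0.918 in control, to the level next below Tnfrsf1b. In LPS the libraries of Tnfrsf1b, Tnfsf15, Tnfrsf1a and Tnfrsf14 did not overlap from one gene to the next. From Tnfrsf14 down to Tnfrsf8 each gene overlapped with its neighbour in the order, so those steps are not beyond the spread.

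**Figure D2:**
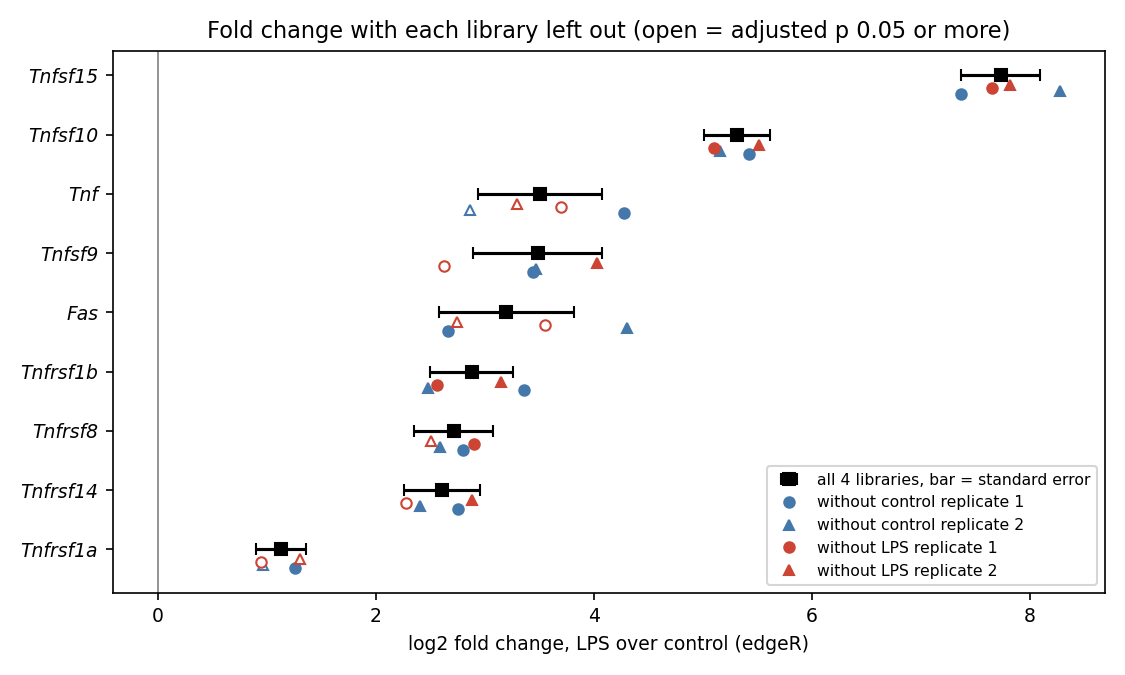
Log2 fold change of LPS over control for each gene from all 4 libraries (black squares, bars are standard errors) and with each library left out in turn (blue, a control library; red, an LPS library; open, adjusted p of 0.05 or more). Tnfsf15 and Tnfsf10 stay above 5 on the log2 scale in every fit shown, and Tnfrsf1a lies nearest to 0 with values of 0.95 to 1.30.

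Several of the 9 genes are neighbours of other superfamily genes (GRCm38.p6). Tnfsf15 (chromosome 4, 63724600 to 63745059) lies 86.1 kb from Tnfsf8 (63831202 to 63861508), with no annotated coding gene between them. Tnfsf8 encodes the ligand of CD30. It was the 1 other superfamily gene called higher, with 5 and 5 counts untreated and 43 and 57 after LPS, log2 3.38 ± 0.44 (edgeR adjusted p = 0.00974), on a mean control count of 5, under the minimum, and it kept its call in each fit that left out a library (3.13 to 3.60). Tnfsf8 and Tnfrsf8, a ligand and its receptor, thus both rose, each on fewer than 100 counts per library.

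Tnfrsf1b (chromosome 4, 145212368 to 145246870) and Tnfrsf8 (145267132 to 145315164) lie 20.3 kb apart on the minus strand with no coding gene between them, and rose by log2 2.88 and 2.71. The other neighbours had few counts or no call. Tnf (chromosome 17, 35199367 to 35202007) lies between Ltb, 3.06 kb away, and Lta, 1.16 kb away, which encode lymphotoxins. Ltb had 1, 1, 0 and 2 counts and Lta 0, 3, 13 and 3 counts in the 4 libraries (controls first), under the minimum for testing. Tnfsf9 (chromosome 17, 57105287 to 57107758) lies 38.2 kb from Cd70, which had 2, 7, 1 and 0 counts. Tnfrsf1a (chromosome 6, 125349723 to 125362483) lies 35.8 kb from Ltbr, the lymphotoxin beta receptor gene, which had 144 and 181 counts untreated and 224 and 206 after LPS (log2 0.50 ± 0.21, edgeR adjusted p = 0.256). The remaining members are Tnfsf10 (chromosome 3, 27317077 to 27339665), Tnfrsf14 (chromosome 4, 154918487 to 154928620) and Fas (chromosome 19, 34290647 to 34327775). Fas holds a small RNA gene model, Gm27818, on its own strand.

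The rest of the superfamily gives the setting of the 9. Of 46 ligand and receptor genes listed, 23 reached the count minimum, 10 were called higher by edgeR and 0 lower, beside 6.55% and 1.79% of all genes tested. Tnfsf8, like Tnf, Tnfsf9 and Fas, reached the minimum through the LPS libraries, so this count too is a description. Of the 14 other ligands 2 were tested, Tnfsf8 and Tnfsf12. Tnfsf12 encodes TWEAK, whose receptor is Fn14. It had 50 and 42 counts untreated and 12 and 6 after LPS (log2 -2.28 ± 0.51) and was not called (edgeR adjusted p = 0.0563), but DESeq2 (-2.28, adjusted p = 0.0209) and limma-trend (-1.88, 0.0483) called it lower. A read-through gene, Tnfsfm13, and an antisense gene overlap Tnfsf12, so its counts may be shared. Tnfsf12 and the receptor genes named next were chosen after their values were seen.

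Of the 23 other receptors 12 were tested. In the unpaired edgeR fit with TMM scaling and a mean count of at least 10, 0 of them were called. At an unadjusted p under 0.05 that fit put 3 lower and 0 higher. The 12 had a median log2 fold change of -0.39, beside -0.05 for all genes tested. They are what was left once the 5 receptors among the members, all called higher, had been set apart. The members were chosen with earlier results known, so the median and these counts describe that remainder. Of all 17 tested receptors edgeR called 5 higher and 0 lower. DESeq2 and limma-trend each called 1 of the 12 lower. That gene was Tnfrsf26, with 351 and 444 counts untreated and 206 and 180 after LPS (edgeR log2 -0.94 ± 0.21, adjusted p = 0.0535; DESeq2 adjusted p = 0.0497; limma-trend 0.0479). It stands in a row on chromosome 7 with Tnfrsf22 and Tnfrsf23, which encode decoy receptors of TRAIL in the mouse, with gaps of 6.96 kb and 16.1 kb. Tnfrsf23 had 168 and 216 counts untreated and 93 and 87 after LPS (-0.99 ± 0.22, edgeR adjusted p = 0.0569), and Tnfrsf22 had 30 and 38 against 12 and 20 (-0.98 ± 0.41, 0.255). Tnfrsf10b, the signalling receptor of TRAIL, had 148 and 276 counts untreated and 115 and 166 after LPS (-0.45 ± 0.29, edgeR adjusted p = 0.469). Tnfrsf21, which encodes the death domain receptor DR6, had 971 and 642 counts untreated and 425 and 205 after LPS (-1.33 ± 0.48, edgeR adjusted p = 0.193). With total-count scaling edgeR called 3 of the other receptors lower, Tnfrsf26 (-1.37, adjusted p = 0.0167), Tnfrsf23 (-1.42, 0.0219) and Tnfrsf21 (-1.73, 0.0427). With a mean count of at least 50 it called Tnfrsf26 (-1.04, adjusted p = 0.0272) and Tnfrsf23 (-1.09, 0.0327) lower. Without control replicate 2 it called Tnfrsf21 (-1.80, 0.0206) and Tnfsf12 (-2.63, 0.0289) lower. Of the TRAIL receptor genes named here (Tnfrsf10b, Tnfrsf22 and Tnfrsf23), none was called higher while the ligand gene Tnfsf10 rose. Among the 12 tested receptors Tnfrsf11b had the highest value, 1.23 ± 0.67 (edgeR adjusted p = 0.387), with groups that overlapped.

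Counts of 0 need care in this table. Cd40, the costimulatory receptor of macrophages and B cells, was listed at 0 in all 4 libraries with 5 accessions, and Cd27 with 3. Tnfrsf9, the receptor of 4-1BB ligand, had 0, 1, 0 and 0 counts with 3 accessions, and 4.11% of the exonic bases of its main accession lie in no other. Of the 23 superfamily genes under the minimum, 10 have more than 1 accession, and their low counts were not read as low expression.

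**Figure D3:**
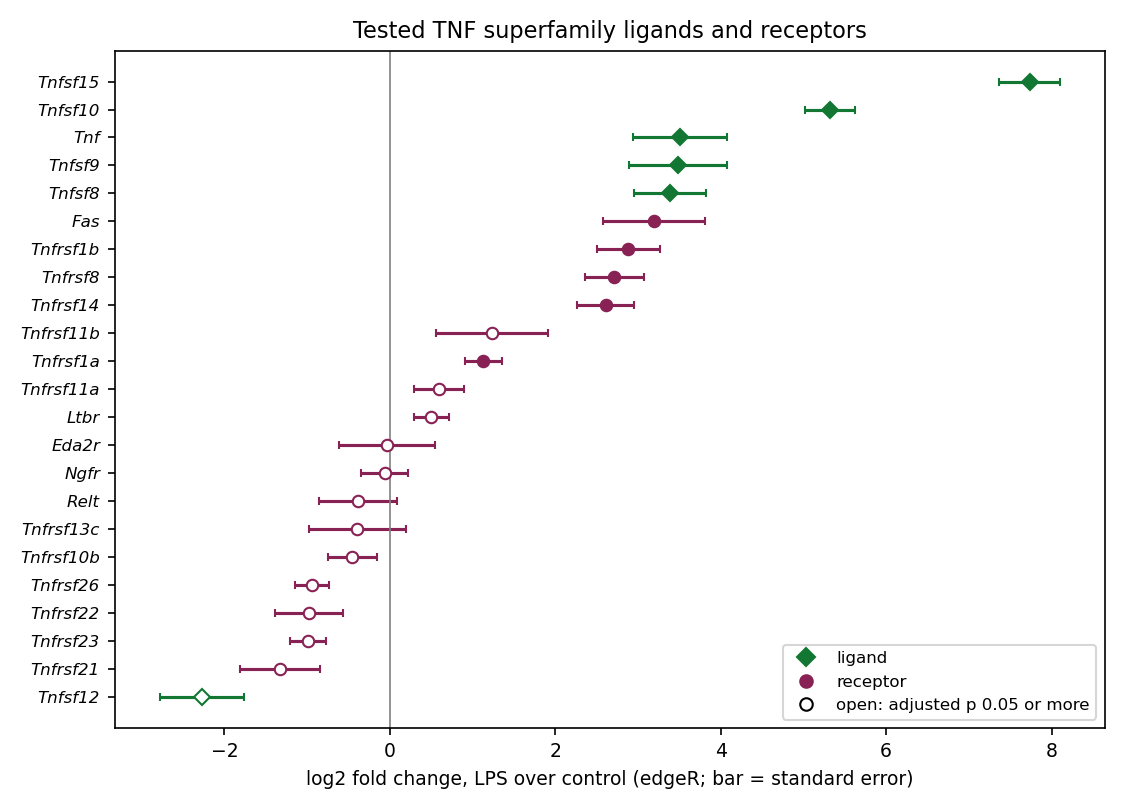
Log2 fold change of LPS over control with its standard error for the 23 tested ligands (diamonds) and receptors (circles), open where the adjusted p was 0.05 or more. The 10 filled points all lie to the right of 0, from 1.13 (Tnfrsf1a) to 7.73 (Tnfsf15), and Tnfsf12 is the lowest open point at -2.28.

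Genes that carry the signal of these receptors were taken from 4 lists, of adaptors, complex members, death signalling and shedding. The counts called in each stand beside 6.55% of all tested genes called higher and 1.79% lower. Traf1, Tnfaip3 and Mlkl had mean control counts of 8.5, 3 and 7 and reached the minimum through the LPS libraries, so these counts describe the lists and give no support. Among TRAF adaptors and their partners 3 of 7 tested genes were called higher and 0 lower (median log2 0.94). Traf1, an adaptor that binds TRAF2 at TNFR2 and other receptors, had 2 and 15 counts untreated and 1068 and 852 after LPS and rose by log2 6.95 ± 0.59 (edgeR adjusted p = 0.00247). Its value was 6.29 without control replicate 1, and without control replicate 2 the log2 ratio from counts was 8.77 (interval 6.92 to 11.8). Birc3, the ubiquitin ligase cIAP2 recruited by TRAF2, had 64 and 71 counts against 387 and 317 and rose by 2.47 ± 0.25 (edgeR adjusted p = 0.00436). Traf5 had 22 and 24 counts against 118 and 84 and rose by 2.22 ± 0.33 (0.0157), which missed the threshold without LPS replicate 1 (1.96, 0.0982, range 2.41e-04 to 0.0982). Traf2 was listed at 0 in all libraries, with 2 accessions, and 0.976% of the exonic bases of the shorter one lie in no other.

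In the receptor complex and its ubiquitin editors 3 of 10 tested genes were called higher and 0 lower (median 0.06). Tnfaip3, the NF-kB feedback enzyme A20, rose by 4.10 ± 0.54 on 4 and 2 counts untreated and 55 and 46 after LPS (edgeR adjusted p = 0.0101). It has 2 accessions, with 3.99% of the main one unshared. Its value was 3.45 without control replicate 2, and without control replicate 1 the log2 ratio from counts was 4.97 (interval 3.08 to 8.04). Rnf31, the catalytic subunit HOIP of the linear ubiquitin ligase, rose by 2.26 ± 0.34 (0.0165) from 20 and 45 counts to 159 and 123, a call lost without LPS replicate 1 (2.07, 0.0885, range 4.55e-05 to 0.0885). Tab2, an adaptor of the kinase TAK1, rose by 1.27 ± 0.21 (0.0229) from 350 and 432 counts to 981 and 780. Its call did not hold without LPS replicate 1 (1.10, adjusted p = 0.16), LPS replicate 2 (1.43, 0.0711) or control replicate 2 (1.16, 0.0521), nor with total-count scaling (0.84, 0.0651, range 0.00105 to 0.16). Ripk1 and Tradd, the core of the TNFR1 complex, had log2 values of -0.09 ± 0.23 and 0.32 ± 0.35 (edgeR adjusted p = 0.881 and 0.701).

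Death receptor signalling held 4 calls, all higher, of 6 tested genes (median 2.67). Cflar, which encodes the caspase-8 inhibitor FLIP, had 11 and 16 counts untreated and 354 and 188 after LPS and rose by 4.42 ± 0.42 (edgeR adjusted p = 0.0036). All its counts lay on 1 of 3 transcript models, and 46.0% of the exonic bases of that model lie in no other. Mlkl, the executioner of necroptosis, had 9 and 5 against 179 and 126 and rose by 4.49 ± 0.47 (0.00494), with a value of 5.19 if control replicate 1 was left out and 3.89 if control replicate 2 was. Bid, which links death receptors to mitochondria, rose by 2.44 ± 0.23 (0.00319) from 47 and 73 counts to 303 and 299. Both an inhibitor of caspase-8 (Cflar) and effectors of cell death (Mlkl and Bid) thus rose, while Fadd, the death domain adaptor, had 55 and 52 counts against 57 and 50 (0.07 ± 0.32, edgeR adjusted p = 0.939). Ripk3 was listed at 0, with 3 accessions.

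In the shedding list 1 of 4 genes was tested. Adam10, a membrane metalloprotease that sheds several ligands and receptors, had a log2 fold change of -0.56 ± 0.18 and was not called (edgeR adjusted p = 0.142; 1 lower at an unadjusted p under 0.05, 0 by DESeq2 and 0 by limma-trend). Over these 6 lists, which hold 77 genes besides the 9, 38 were tested, and their median log2 fold change was 0.08. In the unpaired edgeR fit with TMM scaling and a mean count of at least 10, 11 were called higher and 0 lower. Of all genes tested 6.55% were called higher and 1.79% lower. At an unadjusted p under 0.05 edgeR put 1 other ligand, 3 other receptors and 1 shedding gene lower, and DESeq2 called 2 lower, Tnfsf12 and Tnfrsf26.

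**Figure D4:**
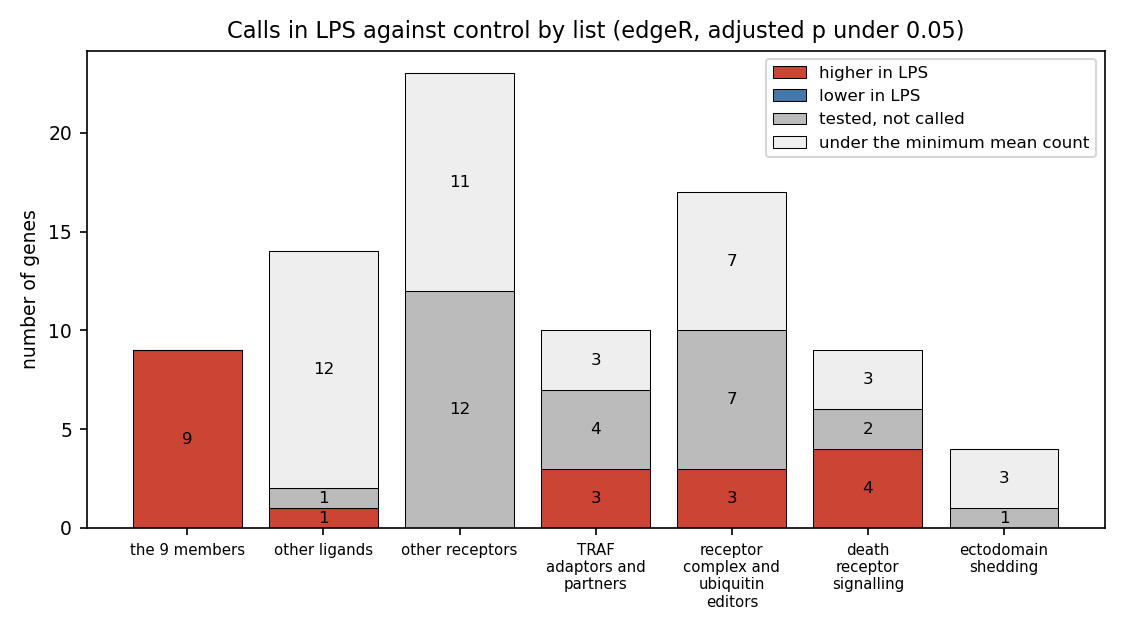
Number of genes in each list that were higher in LPS (red), tested and not called (dark grey) or under the minimum mean count (light grey), by edgeR at an adjusted p under 0.05. Of 6 tested death receptor signalling genes 4 were called higher, and of 12 tested other receptors 0. Of all genes tested 6.55% were called higher and 1.79% lower. Mlkl, among those 4, reached the minimum through the LPS libraries, and the other receptors exclude the 5 called ones, which stand with the members. Other settings called some of the other receptors lower.

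The genes whose pattern over the 4 libraries lay nearest to that of Tnfsf15, by Euclidean distance of log2 CPM centred on the controls, were Ccl2 (distance 0.586) and Isg15 (0.698), followed by an accession that the reference tables do not name (0.758). Ccl2, a monocyte chemoattractant, had 17 and 25 counts untreated and 5116 and 3941 after LPS. Isg15, an interferon-induced ubiquitin-like protein, had 12 and 18 counts untreated and 4252 and 2470 after LPS. With 4 libraries in 2 groups, any gene with a like rise and a like spread between replicates scores near.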

How the data were processed

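RNA sequencing of ribosomal RNA-depleted, directional paired-end libraries was described per the labels. The deposited table holds whole-number counts of 32915 RefSeq accessions, with 1 column per library and 0 columns left unused. Its name says normalized, but column totals differ and the values were treated as counts. Tools named in the submitters' processing notes are HTSeq 0.6.1, TopHat2 2.0.10, Trimmomatic 0.33, Cufflinks 2.2.1 and CASAVA 1.8.2, with build mm10. Roles, counting mode and strand setting: not given in the sources used here.

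Accessions were named from a RefSeq table of GRCm38.p6 (32483) and GENCODE metadata (191); 241 stayed unnamed, and 1 of these held 20.0% to 24.8% of the counts of each library. Counts were summed per symbol. LPS was compared with control in edgeR 4.0.16 (R 4.3.3; quasi-likelihood test, two-sided, TMM, mean count of at least 10, no covariate, Benjamini-Hochberg at 0.05 over all genes tested). DESeq2 1.42.0, limma-trend 3.58.1 on log2(CPM + 1), other scalings and filters, a replicate block, accessions kept apart, and each library left out were alternatives. TMM factors were 1.05 and 1.27 in control and 0.822 and 0.908 in LPS. The 2 libraries of a group were not duplicates (chi-square over df 33.2 for control and 26.5 for LPS). The fit was tested on simulated counts with a single dispersion for all genes. It called 4 of 9335 unchanged genes, 4 of 48 genes changed by log2 1 and 37 of 46 changed by log2 2. Most genes changed by log2 1 were thus missed there. Intervals cover counting error only.

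The members and lists were chosen with earlier results of these data known. Named genes were the 9 members, every called gene of the superfamily and signalling lists (at most 6 per list), and the 3 genes nearest to the called member with the largest rise and to that with the largest fall (no member fell). Some items of these lists are counted but not reported here by name.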

Additional observations from a re-analysis of the deposited data

How the results depend on the processing

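All 9 members kept their upward direction in every setting in which they were tested, and lost calls are given with each gene. The number of members called was 7 with total-count scaling and 5 with a mean count of at least 50, where 5 were tested, and 4 to 9 when a library was left out. Over all genes, calls ran from 339 to 660 higher and from 33 to 241 lower when a library was left out. Total-count scaling gave 483 lower, so that 49.4% of calls were higher instead of 78.5%. Pathway genes called higher numbered 7 to 11 and those called lower 0 to 2 with a library left out. Pathway genes called lower numbered 5 with total-count scaling, 2 with DESeq2, 2 with limma-trend, 1 without a count filter and 2 with a mean count of at least 50. The cause of these shifts was not tested, except that fits without a library rest on 3 samples and assume that the lone library varies like the other group.

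The labels number the libraries 1 and 2 in both groups but do not say that a number marks a shared culture or day. Deviations of same-numbered libraries correlated at 0.656 over genes. With the number as a replicate block edgeR called 1677 genes higher and 1258 lower, all 9 members higher, and 15 pathway genes higher and 7 lower (Tnfsf12, Tnfrsf10b, Tnfrsf21, Tnfrsf22, Tnfrsf23, Tnfrsf26 and Adam10). Few control counts limit the precision of several fold changes, with 6 counts in all for Tnf and Tnfaip3, 10 for Tnfsf8 and 11 for Fas.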
